A study of Mus musculus with 16 samples.

Results

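The miR-376 family is made of 3 small hairpins, miR-376a, miR-376b and miR-376c, each of which can release a 5p and a 3p arm. All 6 arms (mmu-miR-376a-5p, mmu-miR-376a-3p, mmu-miR-376b-5p, mmu-miR-376b-3p, mmu-miR-376c-5p and mmu-miR-376c-3p, written without the species prefix from here on) were found by name among the 1978 mature mouse miRNAs of the deposited count table. The family was selected on measured levels in these libraries, because miR-376b-3p stood higher in hairpin-treated neurons than with the empty vector while most miRNAs encoded around it stood lower. The contrasts with the empty vector therefore chose the family, and they are described here without a test. The comparisons between the 3 hairpin groups were tested, although they share libraries with those contrasts. MiR-376b-3p, picked for being high in these libraries, was tested only between shRNA_5bp and shRNA_2bp, and the scarce miR-376c-5p was not tested, for the reason given with its counts.

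Small RNA was sequenced from mouse forebrain neurons grown as perinatal primary cultures and transduced with a lentiviral vector. A small hairpin RNA (shRNA) is a designed stem-loop that enters the same processing pathway as natural miRNA precursors. The shRNA_5bp group received a hairpin with 5 point mutations, the shRNA_2bp group one with 2 point mutations, the shRNA group the unmutated hairpin, and the Empty_Vector group a lentivirus without a hairpin, with 4 libraries per group. All 16 libraries thus came from lentivirus-exposed cells. The labels used here give neither the target of the hairpin, nor its sequence or promoter, nor whether libraries of the same group are independent cultures or animals, so p-values measure the spread between these libraries, which may be technical.

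MiR-376 hairpins belong to the miR-379/miR-410 cluster of the imprinted Dlk1-Dio3 region, which is expressed from the maternal chromosome and is active in brain. Drosha cuts each hairpin out of a long primary transcript, Dicer removes the loop, and usually 1 arm is kept by Argonaute as the guide that finds targets through its seed. Primary miR-376 transcripts are a known substrate of ADAR enzymes in mouse and human brain, which change adenosine to inosine, also within seeds, and edited miR-376a is known to repress Prps1. In human cells miR-376b is known to repress the autophagy genes ATG4C and BECN1, and miR-376c receptors of the TGF-beta family. The deposited counts are given per name, so edited and unedited forms could not be told apart.

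The mature sequences are shown because closely related arms differed in their values. They come from RefSeq on GRCm38.p6 (5 of 6 arms matched) and are written with the seed, bases 2 to 8 from the 5′ end, in capitals.
miR-376b-3p: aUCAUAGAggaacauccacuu
miR-376a-3p: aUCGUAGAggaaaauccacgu
miR-376b-5p: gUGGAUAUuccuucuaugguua
miR-376c-5p: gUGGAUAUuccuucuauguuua
miR-376a-5p: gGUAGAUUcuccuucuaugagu
MiR-376c-3p is not shown. MiR-376a-3p and miR-376b-3p differed at 3 of 21 bases, G4A, A13C and G20U, with miR-376a-3p as the starting sequence and positions counted from the 5′ end. G4A lies in the seed, so the 2 arms have different seeds. MiR-376b-5p and miR-376c-5p differed at 1 of 22 bases, G19U with miR-376b-5p as the starting sequence, and shared their seed. Among 427 tested miRNAs with a RefSeq sequence, no other name had the seed of any of these 5 arms.

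The 3 hairpins lie on the plus strand of chromosome 12 within 1131 bases (GRCm38.p6), in the order miR-376c, miR-376b, miR-376a. The precursors are shown to place the arms in their stems, with the RefSeq mature arms in capitals. MiR-376c-3p, for which no RefSeq sequence was matched, is left unmarked in Mir376c.
Mir376c, chr12:109722718-109722803: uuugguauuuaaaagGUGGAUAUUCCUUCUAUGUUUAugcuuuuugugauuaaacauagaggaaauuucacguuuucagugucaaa
Mir376b, chr12:109723458-109723539: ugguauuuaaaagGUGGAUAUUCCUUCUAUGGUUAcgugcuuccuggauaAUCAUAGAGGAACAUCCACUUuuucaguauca
Mir376a, chr12:109723781-109723848: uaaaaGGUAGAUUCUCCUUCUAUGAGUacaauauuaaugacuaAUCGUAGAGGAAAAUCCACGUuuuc
The miR-654 hairpin lies between miR-376c and miR-376b, and 241 bases separate miR-376b from miR-376a. No exon or intron of another gene in GENCODE M21 overlapped the 3 hairpins. The annotated start of the host RNA Mirg lay 5915 bases downstream.

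Library totals were 0.832 to 2.496 M counts in shRNA_5bp, 1.18 to 2.10 M in shRNA_2bp, 5.30 to 8.06 M in shRNA and 2.76 to 11.1 M in Empty_Vector, so depth was lower in both mutated-hairpin groups. The 6 arms together had 338 to 1100 counts in a shRNA_5bp library, 778 to 1379 in shRNA_2bp, 1124 to 1685 in shRNA and 583 to 2318 in Empty_Vector. Levels are given as CPM, the counts of a miRNA relative to its library total after TMM scaling (edgeR's trimmed mean of log ratios). The 8 neuronal marker miRNAs, led by miR-128-3p, summed to 307100 to 360100 CPM in shRNA_5bp, 332700 to 361700 in shRNA_2bp, 387200 to 437300 in shRNA and 501600 to 535500 in Empty_Vector. Within that list the names did not move alike. Against the empty vector 5 of the 8 were higher and 2 lower in shRNA_5bp (median log2 fold change 0.21), 4 higher and 3 lower in shRNA_2bp (median 0.26), and 3 higher and 2 lower in shRNA (median 0.12), at an edgeR adjusted p below 0.05. Of all 483 tested miRNAs, 58.2% passed in shRNA_5bp, 65.6% in shRNA_2bp and 34.8% in shRNA. MiR-128-3p averaged 243500 CPM in shRNA_5bp, 240700 in shRNA_2bp, 331100 in shRNA and 427000 in Empty_Vector, and so made up most of the sum. In bulk RNA, fewer cells of a type and less RNA per cell cannot be told apart.

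MiR-376b-3p was the most abundant arm and had its highest level with the hairpin carrying 2 mutations. It had 248, 269.5, 262 and 263 CPM in the shRNA_5bp libraries and 474, 503, 444 and 526 CPM in the shRNA_2bp libraries. It had 119.8, 123, 115.5 and 145 CPM with the unmutated shRNA and 99.6, 97.1, 110.1 and 108.6 CPM with the empty vector. The groups did not overlap, in the order shRNA_2bp, shRNA_5bp, shRNA and Empty_Vector from high to low. The lowest shRNA library (115.5 CPM) and the highest Empty_Vector library (110.1 CPM) were close neighbours. Among all tested miRNAs, 26.9% lay above Empty_Vector without overlap in shRNA_5bp, 29.8% in shRNA_2bp and 18.2% in shRNA.

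Against the empty vector, the log2 fold change of miR-376b-3p was 1.33 ± 0.086 in shRNA_5bp, 2.23 ± 0.085 in shRNA_2bp and 0.28 ± 0.083 in shRNA (± SE from the fit of all 16 libraries). Ranked from the highest fold change of 483 tested miRNAs, it stood at place 43 in shRNA_5bp, 10 in shRNA_2bp and 134 in shRNA. Against the unmutated shRNA, the fold change was 1.05 ± 0.085 in shRNA_5bp and 1.95 ± 0.084 in shRNA_2bp, again as a description.

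Marker lists of other cell types followed these levels only in part. The 7 astroglia-leaning names, miR-21a-5p and miR-22-5p among them, of which 5 were tested, summed to 2115 to 2561 CPM in shRNA_5bp, 3641 to 4060 in shRNA_2bp, 2100 to 2298 in shRNA and 1892 to 2094 in Empty_Vector. That sum was highest in shRNA_2bp, as miR-376b-3p was, while its shRNA_5bp and shRNA libraries overlapped. Most of the sum was miR-21a-5p and miR-22-3p, with means of 1789 and 1716 CPM in shRNA_2bp. Not every name was highest there: miR-31-5p (14.3 CPM in shRNA, 11.1 in shRNA_2bp) and the nearly absent miR-193a-3p were highest in shRNA. The 8 vessel and fibroblast names, 6 of them tested, summed to 1088 to 1214 CPM in shRNA_5bp, 1135 to 1305 in shRNA_2bp, 655 to 742 in shRNA and 692 to 798 in Empty_Vector, so the mutated-hairpin groups overlapped there. Most of that sum was miR-126a-3p, with means of 1099, 1134, 675 and 735 CPM in the same order. Scarcer names differed: miR-10a-5p was higher in shRNA_2bp (37.3 CPM) than in shRNA_5bp (12.65), and miR-199a-3p was lower (20.55 against 30.9). The 4 oligodendrocyte names, 2 of them tested, summed to 105.6 to 154 CPM in shRNA_5bp, 151.5 to 175.5 in shRNA_2bp, 115 to 132 in shRNA and 119 to 149.6 in Empty_Vector.

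The 6 microglia names, 2 of them tested, summed to 65.7 to 86.3 CPM in shRNA_5bp, 88.7 to 104.5 in shRNA_2bp, 77.8 to 106.5 in shRNA and 51.1 to 61.4 in Empty_Vector. MiR-142a-3p and miR-223-3p of this list had no count in any library. MiR-146a-5p made up most of the sum, with 73.7 CPM in shRNA_5bp, 93.3 in shRNA_2bp, 73.7 in shRNA and 52.6 in Empty_Vector, and miR-155-5p was highest in shRNA, with 3.65, 3.21, 15.0 and 3.51 CPM in the same order. The 5 erythroid names summed to 419 to 462 CPM in shRNA_5bp, 436 to 492.5 in shRNA_2bp, 355 to 394 in shRNA and 382 to 425 in Empty_Vector, nearly all of it from miR-486a-5p and miR-486b-5p, whose counts were identical, and miR-144-3p and miR-144-5p had no count. The part of these lists and of depth in the miR-376b-3p levels was not tested.

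**Figure D1:**
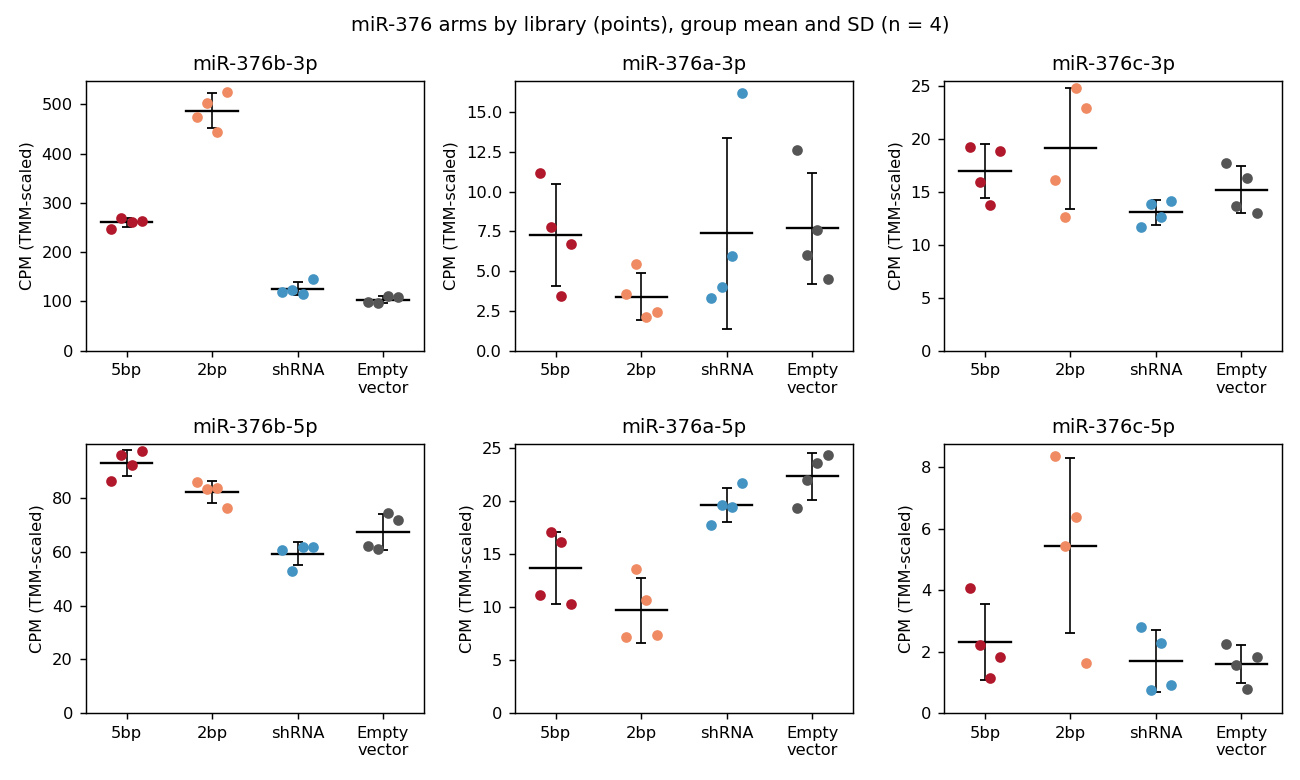
CPM of the 6 miR-376 arms (vertical axes from 0, 1 panel per arm) in each library of the shRNA_5bp, shRNA_2bp, shRNA and Empty_Vector groups. Points are libraries, long bars are group means and error bars are SDs (n = 4). MiR-376b-3p is highest in shRNA_2bp (444 to 526 CPM), while miR-376a-5p is lowest there (7.18 to 13.6 CPM).

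Between the mutated hairpins, miR-376b-3p fell with 5 mutations. Its level was 260.7 ± 9.2 CPM in shRNA_5bp and 487 ± 35.6 CPM in shRNA_2bp (SD, n = 4 each), a log2 fold change of -0.90 ± 0.085 with a 95% interval of -1.07 to -0.72 (edgeR quasi-likelihood test with Benjamini-Hochberg adjustment over 483 miRNAs, adjusted p = 3.09e-10). All 4 shRNA_5bp libraries lay below all 4 shRNA_2bp libraries, as they did for 98 of all 483 tested miRNAs. Because miR-376b-3p was chosen for its level in these same libraries, the p-value is not independent support for a change. In that comparison 59.6% of all tested miRNAs changed. Of the 5 tested arms, miR-376b-3p was the 1 that changed.

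The opposite arm, miR-376b-5p, differed less between groups. It had 86.3, 95.8, 92.05 and 97.3 CPM in shRNA_5bp and 85.6, 83.2, 83.7 and 76.1 CPM in shRNA_2bp. It had 60.6, 52.8, 61.9 and 61.6 CPM in shRNA and 62.2, 60.8, 74.2 and 71.6 CPM in Empty_Vector. The libraries of both mutated-hairpin groups lay above all libraries of the other groups, the shRNA_5bp libraries lay just above the shRNA_2bp libraries, and the shRNA and Empty_Vector libraries overlapped. Such separation was common: 120 of all 483 tested miRNAs lay above shRNA without overlap in shRNA_5bp and 133 in shRNA_2bp. Between the mutated hairpins, 158 lay higher in shRNA_5bp without overlap. Against the unmutated shRNA, miR-376b-5p rose by 0.65 ± 0.107 in shRNA_5bp (edgeR adjusted p = 6.88e-06) and by 0.47 ± 0.107 in shRNA_2bp (edgeR adjusted p = 0.000333). Between shRNA_5bp and shRNA_2bp the fold change was 0.18 with a 95% interval of -0.05 to 0.41 (edgeR adjusted p = 0.179), so no difference was called. Against the empty vector its fold change was 0.48 ± 0.107 in shRNA_5bp, 0.30 ± 0.107 in shRNA_2bp and -0.18 ± 0.0996 in shRNA, given as a description.

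The ratio of the 2 arms of miR-376b within a library does not depend on how libraries are scaled. With 0.5 added to each count, the 3p arm had 2.86, 2.81, 2.84 and 2.70 for each 5p count in the shRNA_5bp libraries. It had 5.52, 6.04, 5.29 and 6.88 in the shRNA_2bp libraries. It had 1.98, 2.33, 1.87 and 2.35 in shRNA and 1.60, 1.60, 1.48 and 1.52 in Empty_Vector. No group overlapped another. How often the arm ratios of other hairpins separate the groups was not examined. Expressed as the 3p arm's share of the counts of both arms, the means were 73.8 ± 0.511% in shRNA_5bp, 85.5 ± 1.42% in shRNA_2bp, 67.9 ± 2.55% in shRNA and 60.8 ± 0.904% in Empty_Vector (SD, n = 4). Between shRNA_5bp and shRNA_2bp the mean log2 ratio (with 0.5 added to each count) was 1.49 ± 0.0367 and 2.56 ± 0.168, a difference of -1.08. A two-sided exact permutation test gave p = 0.0286, the smallest that 4 against 4 libraries allow, and 0.157 after adjustment over the 11 ratio tests. All 4 libraries of each group were separated. Even at that smallest p, a ratio could not pass this adjustment by itself, so missing the threshold says nothing about the difference. The ratio also holds the arm whose level chose the family, so its p-value is not independent support for a change.

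**Figure D2:**
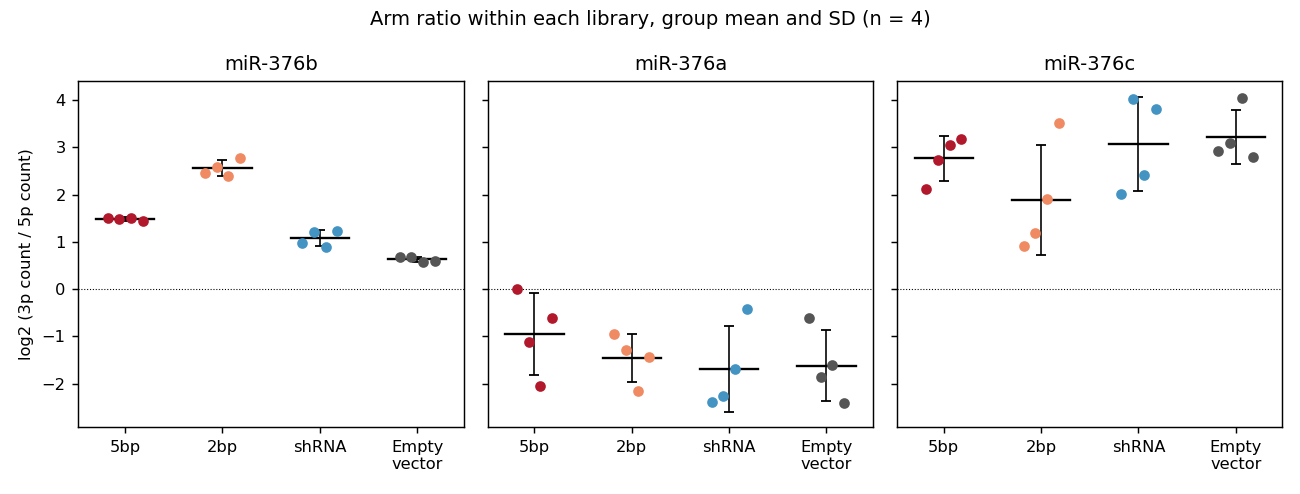
Log2 ratio of 3p to 5p counts (with 0.5 added to each count) within each library for miR-376b, miR-376a and miR-376c, by group. Points are libraries, long bars are means and error bars are SDs (n = 4), and the dotted line marks equal counts. MiR-376b separates the 4 groups, with means of 1.49, 2.56, 1.08 and 0.63 from left to right, while the groups overlap for miR-376a and miR-376c.

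MiR-376a-5p, encoded 241 bases beyond the miR-376b hairpin, was lowest where miR-376b-3p was highest. It had 11.2, 17.1, 16.1 and 10.3 CPM in shRNA_5bp and 7.18, 13.6, 10.6 and 7.36 CPM in shRNA_2bp. It had 17.7, 19.6, 19.4 and 21.7 CPM in shRNA and 19.4, 21.95, 23.5 and 24.4 CPM in Empty_Vector. The mutated-hairpin libraries all lay below the shRNA and Empty_Vector libraries, and overlapped each other. Below shRNA without overlap lay 115 of all 483 tested miRNAs in shRNA_5bp and 149 in shRNA_2bp. Below Empty_Vector these counts were 113 and 142. Against the unmutated shRNA, miR-376a-5p fell by 0.97 in shRNA_2bp (-0.97 ± 0.212, edgeR adjusted p = 0.000241).

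In shRNA_5bp, miR-376a-5p fell by a smaller margin against the unmutated shRNA (-0.49 ± 0.203, edgeR adjusted p = 0.0443). That call was lost without shRNA_5bp library 1 (-0.42, adjusted p = 0.115) or 4 (-0.50, adjusted p = 0.0645), without shRNA library 4 (-0.44, adjusted p = 0.0959) and with libraries scaled by their totals alone (-0.39, adjusted p = 0.123). A fit of only the 2 groups compared lost it as well. Between shRNA_5bp and shRNA_2bp the miR-376a-5p fold change was 0.48, with a 95% interval of -0.03 to 0.99 (edgeR adjusted p = 0.102). Without shRNA_2bp library 2 it was 0.73 and was called (adjusted p = 0.0275). Against the empty vector, as a description, the values of miR-376a-5p were -0.68 ± 0.203 in shRNA_5bp, -1.16 ± 0.211 in shRNA_2bp and -0.19 ± 0.162 in shRNA.

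MiR-376a-3p, the arm most like miR-376b-3p in sequence, was scarce and spread widely. Its counts were 11, 21, 3 and 11 in the shRNA_5bp libraries and 6, 12, 3 and 3 in the shRNA_2bp libraries. They were 26, 21, 34 and 104 in shRNA and 56, 58, 19 and 47 in Empty_Vector. The highest level was 16.2 CPM in shRNA library 4, against 3.33 to 5.96 CPM in the other shRNA libraries. The mean was 7.28 ± 3.18 CPM in shRNA_5bp, 3.401 ± 1.49 in shRNA_2bp, 7.38 ± 6 in shRNA and 7.69 ± 3.51 in Empty_Vector (SD, n = 4), and all groups overlapped. No comparison between hairpin groups passed the edgeR test for miR-376a-3p. Its 95% intervals ran from -0.52 to 2.56 for shRNA_5bp against shRNA_2bp, from -1.145 to 1.147 for shRNA_5bp against shRNA and from -2.34 to 0.31 for shRNA_2bp against shRNA, with adjusted p-values of 0.242, 0.998 and 0.169 in that order. Each of these intervals includes both 0 and changes of more than 2-fold. Without the filter on low counts the third of these comparisons passed (-1.10, adjusted p = 0.0197).

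The mature 3p arms of miR-376b and miR-376a, which differ at 3 bases, stood far apart in number. With 0.5 added to each count, which matters where miR-376a-3p had 3 counts, the ratio of miR-376b-3p to miR-376a-3p was 21.3 to 65.3 in shRNA_5bp. It was 89.1 to 184 in shRNA_2bp, 8.90 to 35.3 in shRNA and 7.83 to 23.7 in Empty_Vector. The shRNA_2bp libraries lay above all others. Between shRNA_5bp and shRNA_2bp the mean log2 ratio was 5.19 ± 0.665 and 7.10 ± 0.498, with an exact permutation p of 0.0286 and an adjusted p of 0.157. Both limits given for the arm ratio of miR-376b hold here too. How well each sequence is ligated and amplified was not tested.

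MiR-376c-3p, the main arm of its hairpin, varied little. It had 19.3, 15.96, 13.8 and 18.8 CPM in shRNA_5bp and 16.2, 12.7, 24.8 and 22.9 CPM in shRNA_2bp. It had 11.7, 13.9, 12.6 and 14.2 CPM in shRNA and 17.8, 13.7, 16.4 and 13.0 CPM in Empty_Vector, and every pair of groups overlapped. In shRNA_2bp it rose by 0.51 ± 0.203 against shRNA (edgeR adjusted p = 0.0303). This call was lost without shRNA_2bp library 3 (0.33, adjusted p = 0.199) or 4 (0.39, adjusted p = 0.132), without shRNA library 1 (0.43, adjusted p = 0.0890), 2 (0.50, adjusted p = 0.0501) or 3 (0.47, adjusted p = 0.0731), and without the filter on low counts (0.43, adjusted p = 0.189). The other comparisons of miR-376c-3p between hairpin groups were not called, with 95% intervals of -0.05 to 0.81 for shRNA_5bp against shRNA (edgeR adjusted p = 0.127) and -0.60 to 0.34 for shRNA_5bp against shRNA_2bp (edgeR adjusted p = 0.644). Against the empty vector its values were 0.19 ± 0.209 in shRNA_5bp, 0.31 ± 0.203 in shRNA_2bp and -0.19 ± 0.178 in shRNA.

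MiR-376c-5p was the scarcest arm. Its counts were 4, 6, 1 and 3 in shRNA_5bp, 14, 12, 9 and 2 in shRNA_2bp, 22, 4, 13 and 6 in shRNA, and 10, 15, 2 and 19 in Empty_Vector. It reached the 3.805 CPM needed by the filter in exactly 4 libraries, 3 of them shRNA_2bp and 1 shRNA_5bp, so it entered the test through the groups in which it was high. In CPM, the shRNA_2bp libraries stood at 8.38, 5.43, 6.39 and 1.64, of which the first 3 were above every other library and the last was within the range of the other groups. Its comparisons are therefore given without a test. The fold change was 1.66 ± 0.456 for shRNA_2bp against shRNA, -1.30 ± 0.567 for shRNA_5bp against shRNA_2bp and 0.36 ± 0.581 for shRNA_5bp against shRNA.

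Against the empty vector, miR-376c-5p stood at 0.41 ± 0.585 in shRNA_5bp, 1.71 ± 0.46 in shRNA_2bp and 0.05 ± 0.43 in shRNA. How the authors assigned reads that match both miR-376b-5p and miR-376c-5p, which differ at G19U, is not given in the sources used here. When the counts of these 2 arms were summed, the sum rose by 0.64 in shRNA_5bp (edgeR adjusted p = 1.23e-05) and by 0.50 in shRNA_2bp (edgeR adjusted p = 0.000229) against shRNA. The sum was chosen after seeing the data.

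**Figure D3:**
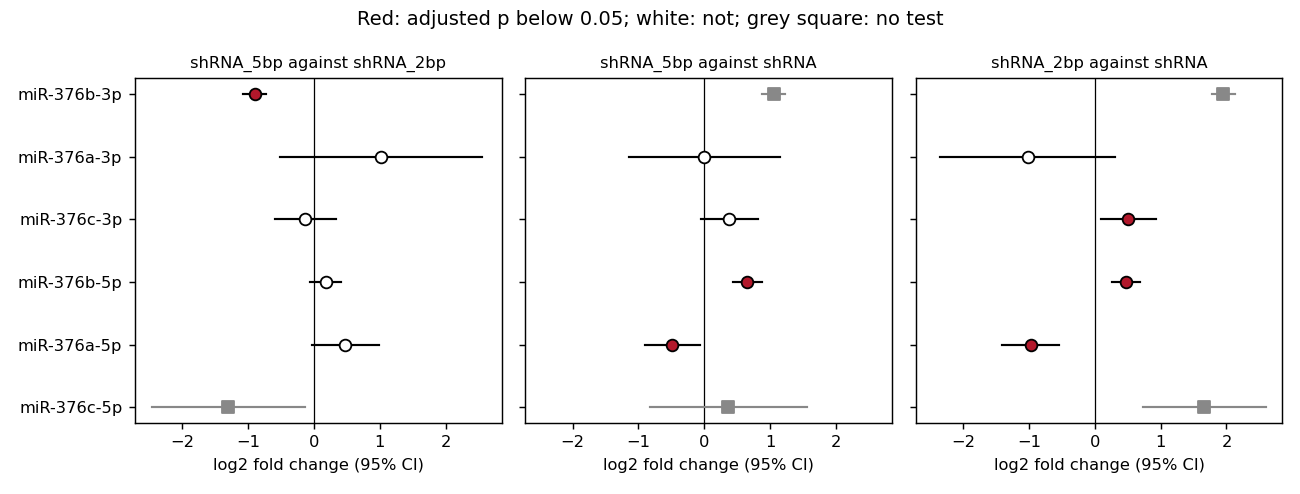
Log2 fold change of each miR-376 arm (points) with its 95% interval (lines) for the 3 comparisons between hairpin groups, from the edgeR fit of all 16 libraries. Red points passed an adjusted p of 0.05, white points did not, and grey squares mark miR-376b-3p and miR-376c-5p where no test was made. MiR-376b-3p and miR-376a-5p lie on opposite sides of 0 in every panel.

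In shRNA_2bp against shRNA, 3 of the 4 tested arms changed, miR-376b-5p and miR-376c-3p up and miR-376a-5p down, where 64.6% of all 483 miRNAs did (31.1% up and 33.5% down). Without 1 library this was 2 or 3 of the 4. In shRNA_5bp against shRNA, 2 of the 4 changed, miR-376b-5p up and miR-376a-5p down, where 53% of all miRNAs did (28.4% up and 24.6% down). In that comparison 1 of the 4 passed with library-size scaling or in a fit of those 2 groups alone. With 4 arms, a share near that of all miRNAs says nothing particular about the family, and its arms moved in both directions.

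The make-up of the family differed between groups. MiR-376b-3p held 65.2 to 67.5% of the summed counts of the 6 arms in shRNA_5bp, 77.7 to 82.6% in shRNA_2bp, 53.1 to 57.5% in shRNA and 46.6 to 48.5% in Empty_Vector. MiR-376b-5p held 22.7 to 24.4%, 11.9 to 14.6%, 23.7 to 28.4% and 29.1 to 32.0% in the same order of groups, and miR-376a-5p held 2.60 to 4.18%, 1.16 to 2.17%, 8.19 to 9.16% and 9.06 to 10.9%. The summed level of the 6 arms was 393.8 ± 12.3 CPM in shRNA_5bp, 606.8 ± 29.0 in shRNA_2bp, 226.8 ± 21.9 in shRNA and 217.9 ± 13.5 in Empty_Vector (SD, n = 4). MiR-376b-3p was the largest part of this sum in every group.

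**Figure D4:**
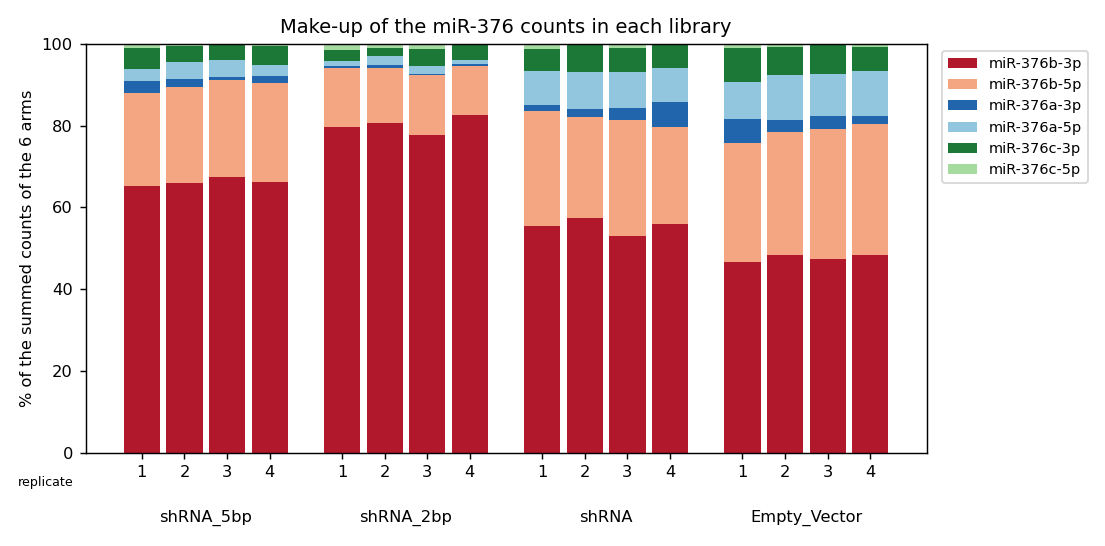
Share of each miR-376 arm in the summed counts of the 6 arms (percent, vertical axis from 0 to 100) in each of the 16 libraries, grouped as shRNA_5bp, shRNA_2bp, shRNA and Empty_Vector. MiR-376b-3p takes 77.7 to 82.6% in shRNA_2bp and 46.6 to 48.5% in Empty_Vector.

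The other miRNAs of the miR-379/miR-410 cluster gave the setting in which the family was chosen. Of 72 other names of the cluster, 51 passed the filter, among them 2 pairs with identical counts in every library, the arms of miR-299a and miR-299b. In shRNA_5bp against the empty vector, 16 of the 51 had a fold change above 0 and 35 below, with a median of -0.26, where 261 of all 483 miRNAs were above and 222 below with a median of 0.06. With library-size scaling the cluster's median was -0.021 and that of all miRNAs 0.30. In shRNA_2bp, 9 were above and 42 below with a median of -0.85, where 245 of all were above and 238 below with a median of 0.01. In shRNA, 6 were above and 45 below with a median of -0.34, where 266 of all were above and 217 below with a median of 0.04. Nothing is read from these counts, since they chose the family.

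The cluster as a whole held 4.62 ± 0.189% of all counts in shRNA_5bp, 3.21 ± 0.121% in shRNA_2bp, 3.85 ± 0.0538% in shRNA and 4.16 ± 0.0682% in Empty_Vector. The share of miR-376b-3p in the cluster's counts was 0.605 ± 0.0202%, 1.56 ± 0.119%, 0.328 ± 0.0418% and 0.227 ± 0.0203% in the same order (SD, n = 4). Between shRNA_5bp and shRNA_2bp, 27 of the 51 other cluster miRNAs rose and 6 fell with 5 mutations (median 0.42, against 0.16 for all tested miRNAs), while miR-376b-3p fell. The called share was 64.7% of the cluster, near the 59.6% of all tested miRNAs, of which 36.9% rose and 22.8% fell. Between shRNA_2bp and shRNA, 12 rose and 28 fell (median -0.70, and -0.45 without shRNA library 4 or -0.46 without shRNA library 1), against a median of -0.01 for all tested miRNAs. The called share was 78.4% of the cluster and 64.6% of all tested miRNAs, of which 31.1% rose and 33.5% fell. The 6 that fell with 5 mutations and the 12 that rose in shRNA_2bp against shRNA both include the arms of miR-299a and miR-299b. These have identical counts and so enter under both names. Low levels of cluster miRNAs in these libraries were part of the choice of the family, so the calls in the cluster are not independent support.

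**Figure D5:**
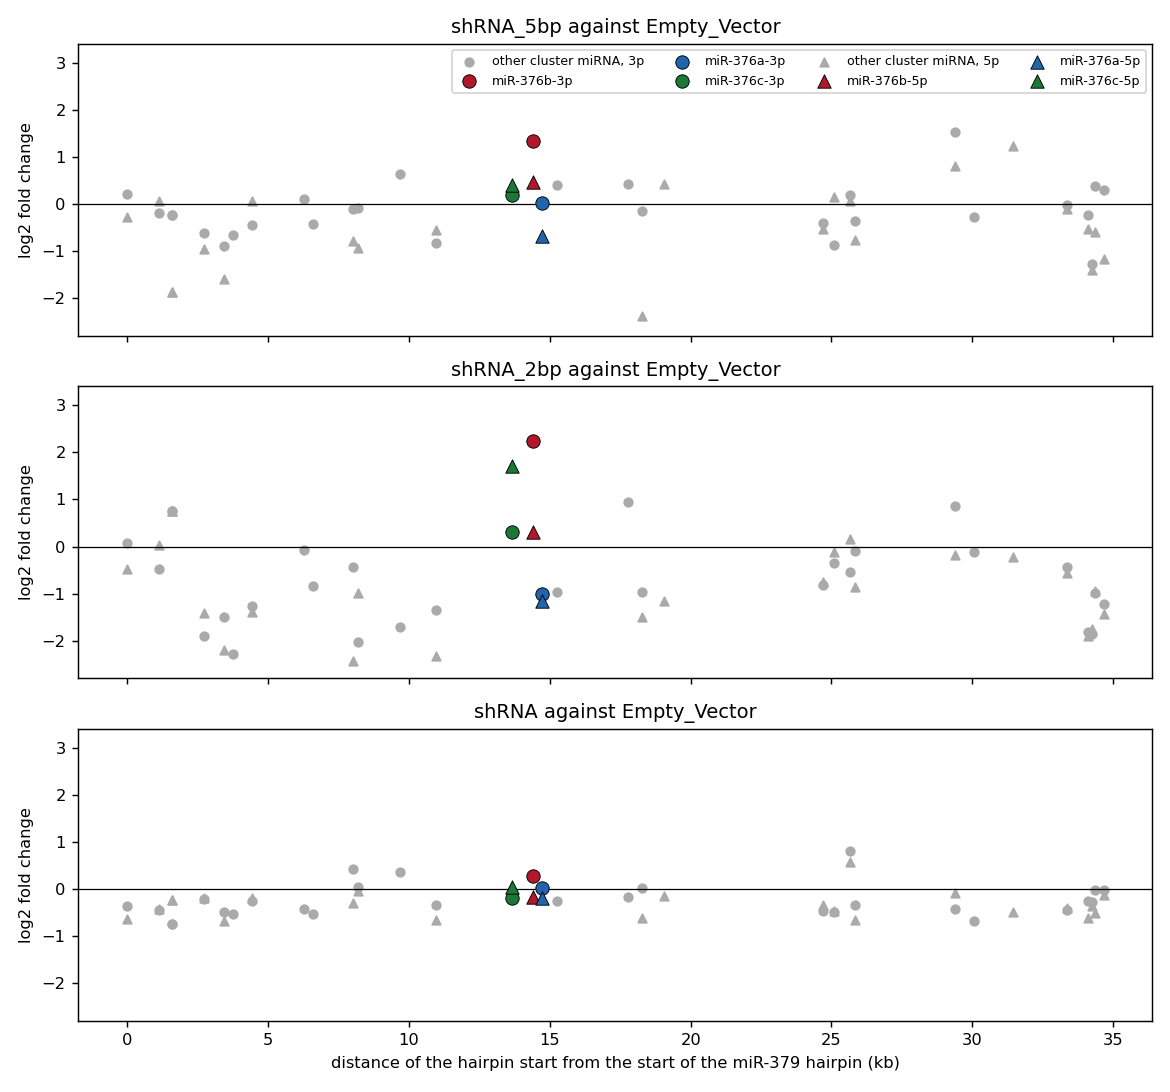
Log2 fold change against Empty_Vector (vertical axis) of every tested cluster miRNA by the distance of its hairpin from the start of the miR-379 hairpin in kb, in 1 panel each for shRNA_5bp, shRNA_2bp and shRNA. Circles are 3p arms, triangles 5p arms, grey symbols other miRNAs and coloured symbols the miR-376 arms. In shRNA_2bp, miR-376b-3p (2.23) is the highest point of the cluster and both miR-376a arms lie below 0 (-1.004 and -1.16).

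The closest hairpins on either side differed from miR-376b-3p and from each other. Upstream, miR-495-3p had 2680 ± 363 CPM in shRNA_5bp, 523 ± 32.2 in shRNA_2bp, 2196 ± 38.2 in shRNA and 1713 ± 94.1 in Empty_Vector. MiR-543-3p had 6460 ± 385, 1686 ± 51.0, 7007 ± 527 and 6855 ± 638 CPM in the same order of groups. Both were lowest in shRNA_2bp, where miR-376b-3p was highest. In shRNA_5bp against shRNA_2bp the fold change was 2.36 ± 0.0752 for miR-495-3p and 1.94 ± 0.067 for miR-543-3p. Low levels of neighbours were part of the choice of the family, so these values are given as a description. The scarcer miR-667-5p had 15.9 ± 4.24, 4.92 ± 2.03, 15.4 ± 2.17 and 23.9 ± 2.36 CPM in that order, and miR-667-3p had 24.6 ± 6.53, 17.6 ± 5.32, 35.7 ± 3.98 and 46.5 ± 14.8 CPM.

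Downstream, miR-300-3p, whose hairpin starts 855 bases after that of miR-376b, had 1996 ± 112 CPM in shRNA_5bp, 775 ± 30.0 in shRNA_2bp, 1263 ± 63.9 in shRNA and 1510 ± 113 in Empty_Vector. MiR-381-3p, 3364 bases after miR-376b, had 7230 ± 284, 10390 ± 283, 4744 ± 247 and 5364 ± 257 CPM in the same order, and so had its highest level in shRNA_2bp, as miR-376b-3p did. Its fold change in shRNA_5bp against shRNA_2bp was -0.52 ± 0.0525, also given as a description. MiR-487b-3p had 713 ± 23.2, 403 ± 36.0, 802 ± 54.7 and 790.2 ± 54.2 CPM. The scarce miR-487b-5p and miR-543-5p were under 10 CPM in every library. No arm of miR-654 passed the filter.

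At the ends of the cluster's range against the empty vector, among names of at least 10 CPM, stood miR-154-5p (0.80 ± 0.133) and miR-495-3p (0.65 ± 0.07) on the high side and miR-323-5p (-1.58 ± 0.169) and miR-412-5p (-1.40 ± 0.156) on the low side in shRNA_5bp. In shRNA_2bp these were miR-381-3p (0.95 ± 0.053) and the 3p arm shared by miR-299a and miR-299b (0.74 ± 0.178), and miR-666-5p (-2.44 ± 0.08) and miR-667-5p (-2.33 ± 0.251). In shRNA they were miR-668-3p (0.80 ± 0.098) and miR-495-3p (0.36 ± 0.069), and again the 3p arm of miR-299a and miR-299b (-0.75 ± 0.169). MiR-376b-3p lay above these high ends in shRNA_5bp and shRNA_2bp, as the choice of the family implies. Below 10 CPM, miR-154-3p stood higher than miR-376b-3p in shRNA_5bp (1.54 ± 0.313).

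Arms of the same hairpin also moved apart elsewhere in the cluster. In shRNA_2bp against shRNA the fold change of the 3p arm minus that of the 5p arm was 1.48 for miR-376b, -0.05 for miR-376a and -1.16 for miR-376c. It ran from -1.13 to 1.38 (median 0.09) over the 20 other cluster hairpins with both arms tested, none of which exceeded miR-376b. In shRNA_5bp against shRNA_2bp it was -1.08 for miR-376b, 0.54 for miR-376a and 1.17 for miR-376c, with a range of -1.33 to 1.89 (median 0.21) over the same 20 hairpins. In shRNA_5bp against shRNA it was 0.40 for miR-376b, and 7 of the 20 were higher. Against the empty vector miR-376b stood at 0.85 in shRNA_5bp, 1.93 in shRNA_2bp and 0.46 in shRNA, with 4, 1 and 3 of the 20 higher. These differences are descriptions, and the miR-376b values involve the level that chose the family. The ends of both ranges came from miR-543, miR-154 and miR-666, whose scarcer arms averaged 3.115, 5.578 and 5.595 CPM. MiR-376c-5p averaged 2.77 CPM, so the values of these 4 hairpins are imprecise. Where both arms were abundant, the difference in shRNA_2bp against shRNA was -0.47 for miR-411 and 0.43 for miR-485.

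Outside the family, the 5 miRNAs whose log2 CPM followed that of miR-376b-3p most closely over the 16 libraries, of 359 compared, were miR-9-5p (Pearson's r = 0.967), miR-381-3p (0.959), miR-25-3p (0.957), miR-22-5p (0.951) and miR-3473a (0.951). The libraries share their group and their depth, and no p is given. MiR-9-5p, a neurogenic miRNA, had 81960 CPM in shRNA_5bp, 95310 in shRNA_2bp, 70730 in shRNA and 71130 in Empty_Vector. MiR-25-3p, of the miR-106b-25 cluster, had 519, 774.5, 398 and 363.5 CPM, and miR-22-5p had 126 CPM in shRNA_5bp, 215.5 in shRNA_2bp, 97.3 in shRNA and 95.3 in Empty_Vector. Within the family, r with miR-376b-3p was 0.71 for miR-376b-5p, 0.52 for miR-376c-3p and -0.87 for miR-376a-5p over the same 16 libraries.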

How the data were processed

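The authors deposited 1 table of unnormalized read counts, with a row for each mature miRNA. The submitters' processing notes name bcl2fastq 2.20.0.422, Trim Galore 0.6.0, cutadapt 1.15, Bowtie 1.1.1, edgeR and the build GRCm38.p6, without the role of each. Per the labels' protocols, 100 ng of total RNA went through 15 PCR cycles and size selection; no molecular identifiers are named, so intervals cover no separate amplification error.

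All 16 libraries were fitted in edgeR 4.0.16 (limma 3.58.1, R 4.3.3) by a robust quasi-likelihood model with 1 coefficient per group, after edgeR's filter (at least 10 counts at the median depth in 4 libraries) and scaling by the trimmed mean of M values. The filter left 483 miRNAs, all 6 arms among them, over which the Benjamini-Hochberg adjustment was made, with a threshold of 0.05. Intervals used the t distribution with the degrees of freedom of each fit. DESeq2 1.42.0 was an alternative. MiR-376c-5p, for which a test had been planned, was left untested because it passed the filter only through libraries of the mutated-hairpin groups. Replicates of a group differed by more than sampling noise.

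The members, lists and tests were chosen with earlier results of these data known. Named were the 6 arms, arms of the 3 hairpins on each side (and miR-654 between them), the 2 highest and 2 lowest cluster names per contrast with the empty vector, and the 5 closest patterns. Libraries of the same number were compared for pairing by correlating deviations from group means over 360 miRNAs. All 4 correlations were above 0.1 for shRNA with Empty_Vector (0.111 to 0.281) and shRNA_2bp with shRNA (0.166 to 0.198), and not for the other comparisons. The labels do not say what a number marks, and the pairing comes from these correlations.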

Additional observations from a re-analysis of the deposited data

Results flagged for a closer look

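In the shRNA group, miR-376b-5p had 52.8 CPM in replicate 2, apart from 60.6 to 61.9 CPM in the other 3 libraries. It stood out by Dixon's criterion, with 0.864 of the group's range between it and its neighbour, above the 95% critical value for 4 libraries. In all, 44 groups of values (6 arms and 5 ratios in 4 groups) were screened, and chance marks about 1 in 20. Without that library, miR-376b-5p was 0.45 higher on the log2 scale in shRNA_5bp than in shRNA (edgeR adjusted p = 0.00264) and 0.39 higher in shRNA_2bp than in shRNA (edgeR adjusted p = 0.00612).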

How the results depend on the processing

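Of 863 alternative values, 786 were labelled as unchanged. Tested values had to keep their direction and side of the threshold. Untested values and ratios had to stay within the spread between replicates, and counts of calls had to stay near the main count. The fall of miR-376b-3p in shRNA_5bp against shRNA_2bp (-1.05 to -0.84), the rises of miR-376b-5p against shRNA and the fall of miR-376a-5p in shRNA_2bp against shRNA were called under every alternative. Since miR-376b-3p was chosen for its level in these libraries, its calls are not independent support for a change. In shRNA_5bp against shRNA_2bp, 1 to 2 arms were called when leaving out a library. In shRNA_5bp against shRNA, 1 was called with library-size scaling or only the 2 groups compared, and 1 to 2 when leaving out a library. The replicate block changed no call of an arm (miR-376b-3p in shRNA_5bp against shRNA_2bp was -0.90 with it). MiR-376a-3p in shRNA_5bp against shRNA turned negative with RLE scaling (-0.030), no filter (-0.21), DESeq2 (-0.035) and without 6 of 8 libraries (-0.42 to 0.75 over all 8). MiR-376c-3p in shRNA_5bp against shRNA_2bp ranged over -0.31 to 0.049 when leaving out a library. The cause was not tested.

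The median of the cluster without the family moved as follows. With library-size scaling, which shifted the median of all miRNAs by 0.24, 0.18 and 0.14 against Empty_Vector, it was -0.021 for shRNA_5bp, -0.67 for shRNA_2bp and -0.20 for shRNA against Empty_Vector, and 0.12 for shRNA_5bp against shRNA. Without the filter it was -0.59 for shRNA_5bp and -1.07 for shRNA_2bp against Empty_Vector, 0.28 for shRNA_5bp against shRNA_2bp, -0.13 for shRNA_5bp against shRNA and -0.95 for shRNA_2bp against shRNA. With only the 2 groups it was -0.55 for shRNA_2bp against shRNA, and with DESeq2 it was -0.40 for shRNA against Empty_Vector and 0.34 for shRNA_5bp against shRNA_2bp. Leaving out a library gave -0.39 to -0.24, -0.98 to -0.78 and -0.42 to -0.28 for shRNA_5bp, shRNA_2bp and shRNA against Empty_Vector, 0.37 to 0.49 for shRNA_5bp against shRNA_2bp, -0.15 to 0.085 for shRNA_5bp against shRNA and -0.70 to -0.45 for shRNA_2bp against shRNA. The scarce arms miR-376a-3p and miR-376c-5p rest on 1 to 21 counts in the mutated-hairpin libraries, which limits their precision.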
